A study of Mus musculus with 8 samples.

Results

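The genes described here are 8 genes of bone mineralization, of which 3 encode enzymes that free phosphate or its precursor phosphocholine (Alpl, Phospho1 and Smpd3), 1 encodes an enzyme that makes pyrophosphate (Enpp1), 1 exports pyrophosphate (Ank), 2 import phosphate (Slc20a1 and Slc20a2) and 1 encodes a small membrane protein of osteoblasts (Ifitm5). They were taken by gene name from a deposited table of 55401 genes, and all 8 were found and were among the 20152 genes tested. RNA was sequenced from cortical bone, which is the compact wall around the marrow, of C57BL/6J mice. The 4 control libraries came from Ripk4fl/fl mice, whose titles and protocol call them WT. The 4 KO libraries came from UbcCre/ERT2 Ripk4fl/fl mice, so both groups carried the floxed Ripk4 alleles and the KO group also carried Cre joined to an estrogen receptor variant under a ubiquitin promoter, which is active in most cell types. That form of Cre enters the nucleus only with its drug, and the sources used here name no dosing. The protocol states 4 weeks, which could be the mice's age or the time since induction. The labels do not say that each library came from a separate mouse, so p-values measure the spread between these libraries.

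Bone mineral is calcium phosphate, and its deposition depends on the balance between inorganic phosphate, which builds the crystal, and pyrophosphate, which blocks crystal growth. Osteoblasts bud off matrix vesicles, in which phosphate is released from membrane phospholipids, while alkaline phosphatase on vesicle and cell surfaces breaks down pyrophosphate outside them. Pyrophosphate is made from extracellular ATP by a surface enzyme, and a membrane protein is needed for its release from cells.

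Total counts ran from 61092688 to 66774693 per library. Ripk4, the targeted gene, had counts of 10, 4, 0 and 4 in control and 0, 12, 0 and 0 in KO, too few to check the labels. On the first principal component, which held 36.5% of the variance, control and KO libraries fell on opposite sides and KO 4 lay farthest out. Mitochondrial transcripts took 6.17% to 16.1% of the counts in control and 5.56% to 6.09% in KO. Markers of osteoblasts summed to between 3514 and 8737 FPKM (fragments scaled to gene length and library size) in control libraries and between 566 and 1095 FPKM in KO libraries, and 7 of 12 fell. Osteocyte markers stood at 442 to 1107 FPKM in control and 97.2 to 445 in KO, and 5 of 10 fell. Neutrophil markers stood at 31278 to 44832 FPKM in control and 61290 to 73799 in KO, and 8 of 12 rose. The osteocyte count was 2 or 3 when any library but KO 4 was left out, and the neutrophil count was 5 when control 2 or control 3 was left out and 4 when KO 3 was. Chondrocyte markers summed to between 118 and 270 FPKM in control and 14.0 and 42.0 FPKM in KO, and 4 of 9 tested fell (2 when control 3 or control 4 was left out). Endothelial markers summed to between 132 and 161 FPKM in control and 89.8 and 120 FPKM in KO, and 3 of 10 fell. The endothelial count was 0 or 1 when any library but control 1 or KO 2 was left out. B cell markers summed to between 23.6 and 31.4 FPKM in control and 21.7 and 28.0 FPKM in KO. Of these, 4 of 10 fell, and 0 to 2 with any 1 library left out. Among osteoclast markers 1 of 10 rose, a call lost without control 1, control 3, control 4, KO 1 or KO 3. No tested erythroid, monocyte and macrophage or adipocyte marker fell or rose. Control 3 and control 4 were the libraries with the most mitochondrial counts. Without both together, the osteocyte, neutrophil, endothelial, B cell and osteoclast counts were 0, the osteoblast count 4 and the chondrocyte count 2. That fit called 56 of 21392 genes over the whole table, where the fit of all 8 libraries called 2083 of 20152, or 10.3%. Every later result without control 3 and control 4 comes from that fit. Skeletal muscle markers summed to 494, 140, 3560 and 2035 FPKM in control 1 to 4. In KO they summed to between 211 and 1617 FPKM, and 0 of 10 fell or rose. No marker of the osteoblast, osteocyte and neutrophil lists was at 0 in every library. In bulk tissue, fewer cells of a type and less RNA per cell cannot be told apart, and the part of these shifts in the results below was not tested.

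Ifitm5 and Ank fell in KO, and no other gene of the 8 passed the test. Ifitm5 was 3.57-fold lower, and Ank stood at 0.591 of its control level. The fitted levels of Alpl, Smpd3, Enpp1 and Slc20a2 were also lower and those of Phospho1 and Slc20a1 higher, without passing an adjusted p of 0.05 in edgeR's quasi-likelihood test, which was adjusted over all 20152 genes. Of the 8, 2 were called, both lower, where 10.3% of all genes tested were called, 5.03% lower and 5.31% higher. The unadjusted p was under 0.05 for 7 of the 8, where it was so for 28.1% of all genes. The levels of 4 of the 8 did not overlap between the groups, where this was so for 20.7% of all genes. The median log2 fold change was -1.0 over the 8 genes and -0.018 over all genes tested.

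**Figure D1:**
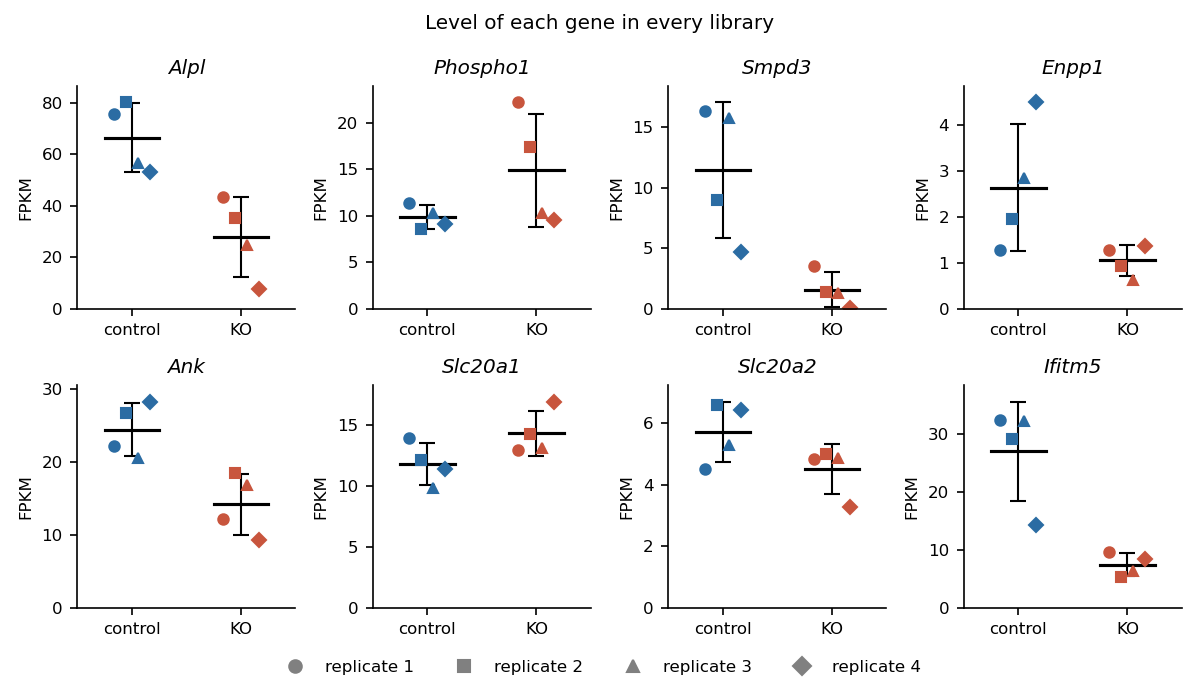
Level of each of the 8 genes in FPKM (linear axes from 0, one panel per gene), with a point for each of the 4 control and 4 KO libraries and the mean and SD of each group. Alpl, Smpd3, Ank and Ifitm5 have every KO library below every control library, and KO 4 is at 0.072 FPKM for Smpd3.

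**Figure D2:**
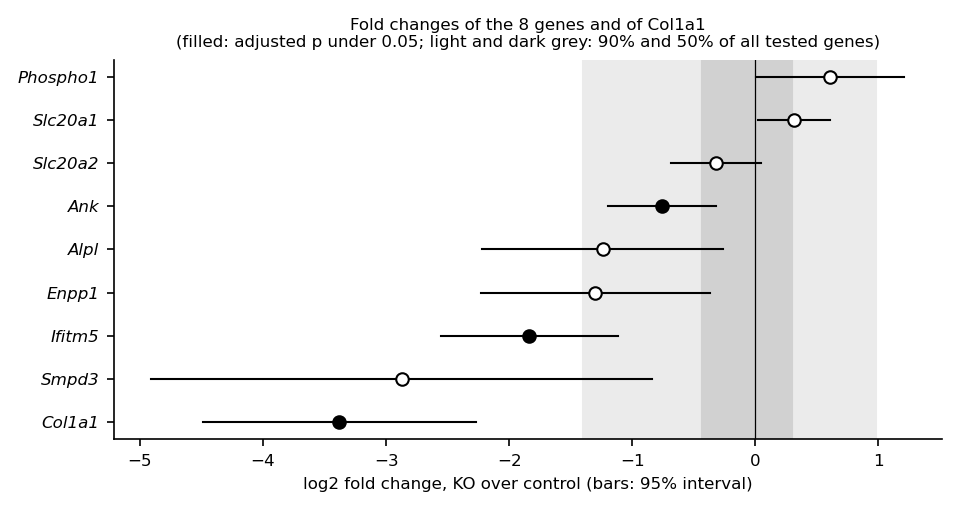
Log2 fold change of KO over control for each of the 8 genes and for Col1a1, the main collagen chain of bone, with its 95% confidence interval from edgeR's quasi-likelihood fit, over grey bands that hold 90% and 50% of all tested genes (filled points have an adjusted p under 0.05). Of the 8, Ifitm5, at -1.84, and Ank, at -0.76, are filled, and Smpd3, at -2.87, has the widest interval.

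Upstream sequences are printed for 4 genes, because Ifitm5 and Ank were the genes called and Phospho1 and Alpl form the gene pair whose ratio of levels did not overlap between the groups. Each is the RefSeq sequence (GRCm38.p6) just before the gene's deposited start, read 5′ to 3′ on the gene's strand, and capitals mark a match on either strand to one of the motifs searched. Windows of 250 bases were searched, and bases inside the gene as the deposited table places it are not printed. Of the 8 genes, 6 were matched to RefSeq windows, and Smpd3 and Slc20a2 were not. The stretches are chr7:140950292-140950493 on the minus strand for Ifitm5, chr15:27466427-27466676 on the plus strand for Ank, chr4:137796385-137796634 on the minus strand for Alpl and chr11:95824250-95824498 on the plus strand for Phospho1.
Ifitm5: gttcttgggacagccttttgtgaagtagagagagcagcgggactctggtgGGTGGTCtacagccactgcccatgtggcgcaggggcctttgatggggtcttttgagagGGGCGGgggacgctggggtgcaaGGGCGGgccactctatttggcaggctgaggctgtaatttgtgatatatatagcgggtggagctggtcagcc
Ank: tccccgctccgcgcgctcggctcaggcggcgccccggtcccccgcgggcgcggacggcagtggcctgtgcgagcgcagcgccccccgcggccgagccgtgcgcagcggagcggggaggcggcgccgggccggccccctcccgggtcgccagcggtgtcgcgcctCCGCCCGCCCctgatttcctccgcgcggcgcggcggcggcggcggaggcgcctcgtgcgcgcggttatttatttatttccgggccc
Alpl: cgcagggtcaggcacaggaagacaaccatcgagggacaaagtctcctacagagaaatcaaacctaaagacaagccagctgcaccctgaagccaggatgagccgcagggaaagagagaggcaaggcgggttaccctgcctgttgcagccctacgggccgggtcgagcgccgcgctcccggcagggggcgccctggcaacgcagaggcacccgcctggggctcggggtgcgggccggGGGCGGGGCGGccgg
Phospho1: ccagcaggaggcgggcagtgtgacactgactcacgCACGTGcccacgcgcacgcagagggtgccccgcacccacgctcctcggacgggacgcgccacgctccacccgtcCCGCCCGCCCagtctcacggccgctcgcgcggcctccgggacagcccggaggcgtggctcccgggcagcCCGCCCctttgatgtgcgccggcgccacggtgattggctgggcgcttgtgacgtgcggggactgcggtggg

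The motifs were the GC box GGGCGG, the RUNX core TGTGGT, the GLI core GACCACC, the E-box CACGTG and the TATA box TATAAA, each read on both strands. The GC box was in all 6 windows and in 32.7% of 32851 windows of 250 bases over all genes. The GLI core was in the Ifitm5 window alone among the 6, where it reads GGTGGTC in the sequence above, and in 2.34% of all windows. The RUNX core was in the Enpp1 and Slc20a1 windows and in 14% of all windows. The E-box was in the Phospho1 and Slc20a1 windows and in 6.02% of all windows, while the letters TATAAA were in 0 of the 6 and in 12.4% of all windows. Other forms of the TATA box were not searched, and the Ifitm5 sequence above holds tatatata near its end. A match describes the letters and not a site of binding.

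Smpd3 (chr8:106252548-106337988 in GRCm38, minus strand) encodes neutral sphingomyelinase 2, which splits the membrane lipid sphingomyelin into ceramide and phosphocholine, and mice that lack it have fragile, undermineralized bones. Its level was 16.3, 9.01, 15.8 and 4.68 FPKM in control 1 to 4 and 3.55, 1.34, 1.3 and 0.072 FPKM in the 4 KO libraries in order. Every KO library was below every control library, and KO 4 stood far under the others, with 26 counts where the other KO libraries had 492 to 1387. The mean was 11.4 ± 5.59 FPKM (SD, n = 4) in control and 1.57 ± 1.45 FPKM (SD, n = 4) in KO, with a log2 fold change of -2.87 ± 0.89 (SE). It did not pass the test, at an adjusted p of 0.0762 in edgeR, and the 95% interval of the fold ran from 0.0334 to 0.558. Without KO 4 the log2 fold change was -2.48 and the adjusted p 0.0359 in edgeR.

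Phospho1 (chr11:95824499-95832140, plus strand) encodes a phosphatase that releases phosphate from phosphocholine and phosphoethanolamine inside matrix vesicles. Its level was 11.4, 8.57, 10.3 and 9.14 FPKM in control 1 to 4 and 22.2, 17.5, 10.3 and 9.56 FPKM in the 4 KO libraries in order. KO 1 and KO 2 were above every control library, while KO 3 and KO 4 lay within the control range. The mean was 9.86 ± 1.27 FPKM (SD, n = 4) in control and 14.9 ± 6.04 FPKM (SD, n = 4) in KO. The log2 fold change of 0.61 ± 0.26 (SE) had an adjusted p of 0.173 in edgeR. Of the 50-base stretches of its exons, 85.4% also lie in exons of Zfp652 on the same strand, so reads of these genes may not have been told apart and the Phospho1 level is uncertain. Zfp652 itself stood at 5.48 FPKM in control and 6.29 FPKM in KO. Exons of Abi3, on the opposite strand, also overlap those of Phospho1, and how strands were assigned is not given. Abi3 stood at 15.8 FPKM in control and 15.7 FPKM in KO.

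Alpl (chr4:137741733-137796384, minus strand) encodes tissue-nonspecific alkaline phosphatase, the surface enzyme that splits pyrophosphate into phosphate and whose loss causes hypophosphatasia in humans. Its level was 75.5, 80.1, 56.8 and 53.1 FPKM in control 1 to 4 and 43.5, 35.1, 24.6 and 7.61 FPKM in the 4 KO libraries in order. All KO libraries were below all control libraries, and KO 4 was again the lowest. The mean was 66.4 ± 13.4 FPKM (SD, n = 4) in control and 27.7 ± 15.5 FPKM (SD, n = 4) in KO, a log2 fold change of -1.24 ± 0.43 (SE). The adjusted p was 0.101 in edgeR, and the interval of the fold ran from 0.215 to 0.833. Without KO 4 the log2 fold change was -0.94 and the adjusted p 0.0354 in edgeR.

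Enpp1 (chr10:24637914-24712159, minus strand) encodes the ectoenzyme that makes pyrophosphate from ATP outside the cell. Its level was 1.27, 1.95, 2.84 and 4.49 FPKM in control 1 to 4 and 1.27, 0.937, 0.626 and 1.36 FPKM in the 4 KO libraries in order. Control 1 lay within the KO range, so the groups overlapped. The mean was 2.64 ± 1.39 FPKM (SD, n = 4) in control and 1.05 ± 0.337 FPKM (SD, n = 4) in KO. The log2 fold change of -1.3 ± 0.41 (SE) had an adjusted p of 0.079 in edgeR. Without control 1 it was -1.54, with an adjusted p of 0.0447 in edgeR, and without control 4 it was -0.95, with an adjusted p of 0.194. Without control 3 and control 4 together it was -0.54, with an adjusted p of 0.521 in edgeR.

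Ank (chr15:27466677-27594909, plus strand) encodes a membrane protein needed for the release of pyrophosphate from cells, and its loss in mice leads to mineral deposits in joints. Its level was 22.2, 26.7, 20.6 and 28.2 FPKM in control 1 to 4 and 12.2, 18.4, 16.8 and 9.36 FPKM in the 4 KO libraries in order. The groups did not overlap, and the highest KO library stood just under the lowest control library. Ank fell from 24.4 ± 3.63 FPKM (SD, n = 4) to 14.2 ± 4.15 FPKM (SD, n = 4), with a log2 fold change of -0.76 ± 0.19 (SE) and adjusted p = 0.0421 in edgeR. The interval of the fold ran from 0.436 to 0.801. The call was lost when any control library, KO 1 or KO 3 was left out, at adjusted p of 0.0604 to 0.1155 in edgeR. The adjusted p was 0.0336 without KO 2 and 0.0451 without KO 4. With 1 library left out, the log2 fold change of Ank ran from -0.892 to -0.62. Those fits called 769 to 2230 genes over the whole table.

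Slc20a1 (chr2:129198764-129211616, plus strand) and Slc20a2 (chr8:22476788-22569612, plus strand) encode sodium-dependent importers of phosphate found in most cell types. The level of Slc20a1 was 13.9, 12.1, 9.85 and 11.4 FPKM in control 1 to 4 and 13.0, 14.2, 13.1 and 16.9 FPKM in the 4 KO libraries in order. For Slc20a2 it was 4.52, 6.59, 5.28 and 6.44 FPKM in control 1 to 4 and 4.85, 5.0, 4.86 and 3.29 FPKM in the 4 KO libraries in order. Both genes overlapped between the groups, and KO 4 had the highest level of Slc20a1 and the lowest of Slc20a2. The log2 fold change of Slc20a1 was 0.31 ± 0.13 (SE), with an adjusted p of 0.148 in edgeR and an interval of the fold from 1.02 to 1.52. That of Slc20a2 was -0.32 ± 0.16 (SE), with an adjusted p of 0.234 in edgeR and an interval from 0.621 to 1.03.

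Ifitm5 (chr7:140948958-140950291, minus strand) encodes a small membrane protein made mainly by osteoblasts, and a recurrent human mutation in it causes a form of osteogenesis imperfecta. Its level was 32.4, 29.1, 32.2 and 14.4 FPKM in control 1 to 4 and 9.71, 5.30, 6.4 and 8.40 FPKM in the 4 KO libraries in order. Every KO library was below control 4, the lowest control library. Ifitm5 fell from 27.1 ± 8.56 FPKM (SD, n = 4) to 7.45 ± 1.98 FPKM (SD, n = 4), with a log2 fold change of -1.84 ± 0.32 (SE) and adjusted p = 0.0135 in edgeR. The interval of the fold ran from 0.170 to 0.461, and the call held with any 1 library left out, at adjusted p of 0.0123 to 0.0464. It was lost without control 3 and control 4 together, in the fit that called 56 genes over the whole table. The log2 fold change there was -1.97, at an adjusted p of 0.0579 in edgeR. Of the 50-base exon stretches of Ifitm5, 25.3% also lie in the read-through gene Gm45717, which is listed at 0 in every library. How such reads were assigned is not given, so the Ifitm5 level is uncertain to that extent.

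The order of the levels per gene length differed between the groups. In control, Alpl was highest and lay above Ifitm5 and Ank, whose ranges overlapped. By mean level, Slc20a1, Smpd3 and Phospho1 came next with overlapping neighbours, followed by Slc20a2 and then Enpp1. In control 4, however, Smpd3, at 4.68 FPKM, lay under Slc20a2, at 6.44 FPKM. In KO, the neighbouring ranges of Alpl, Phospho1, Slc20a1, Ank and Ifitm5 all overlapped, and those of Slc20a2, Smpd3 and Enpp1 overlapped below them.

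Ratios of levels within a library do not depend on how libraries are scaled, apart from the 0.5 added to each level. That addition weighs most on low levels such as those of Enpp1. The ratio of Phospho1 to Alpl, computed from FPKM + 0.5, was 0.157, 0.113, 0.189 and 0.18 in the control libraries in order. In KO libraries it was 0.515, 0.504, 0.429 and 1.24. Every KO library was above every control library, and in KO 4 alone Phospho1 stood above Alpl. The ratio was 3.90-fold higher in KO, with a two-sided exact permutation p of 0.0286, the smallest that 4 against 4 can give. The adjusted p was 0.049 over 12 ratios, but 8 of those are ratios to Col1a1, which nearly all genes would pass. Over the 4 gene pairs alone, an adjustment chosen after seeing the data, it was 0.114, so the difference is not called here. Its log2 difference was 1.96, and 1.62 without KO 4, and the reads Phospho1 shares with Zfp652 limit it in the same way as the level. The ratio of Alpl to Enpp1 differed by -0.53 on the log2 scale (exact p = 0.543) and that of Alpl to Ank by -0.67 (exact p = 0.257). With 1 library left out, the difference of Alpl to Enpp1 ran from -0.886 to 0.087, so its sign was not always kept. Recomputed in other ways, the difference of Alpl to Enpp1 ran from -0.676 to -0.261. That of Slc20a1 to Slc20a2 differed by 0.58 (exact p = 0.114). The groups overlapped for all 3.

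**Figure D3:**
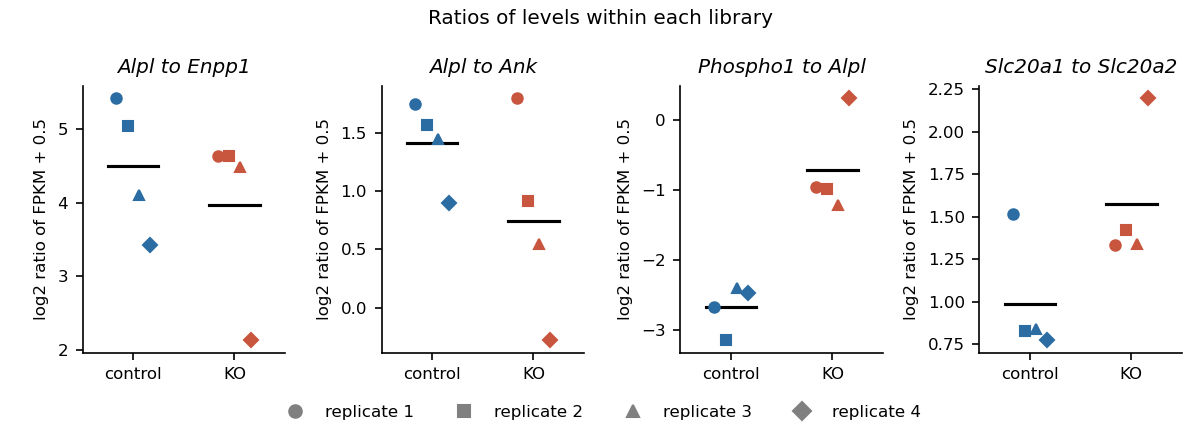
Log2 ratio of levels (FPKM + 0.5) of 4 pairs of genes in each library, with 4 control and 4 KO points per pair and a line at each group's mean. The ratio of Phospho1 to Alpl separates the groups, with KO 4 highest, while the other 3 pairs overlap.

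Relative to Col1a1, which fell by 3.38 on the log2 scale, 6 of the 8 genes had every KO library above every control library. The exceptions were Smpd3, at 0.73 (exact p = 0.114) and in the other direction, at -0.195, on log2(counts + 1), and Enpp1, at 2.48 (exact p = 0.0571). Nothing about these genes follows from that count, because 97% of all genes lay above control in every KO library on the same scale and 99.8% had a log2 fold change above that of Col1a1.

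Of the 6 other genes of the interferon-induced transmembrane family, 4 rose and 0 fell, where 5.31% of all genes tested rose and 5.03% fell. The median log2 fold change of the 6 was 1.42. Several of the family encode membrane proteins that restrict virus entry. Ifitm6 rose from 381 ± 88.4 to 1383 ± 279 FPKM (SD, n = 4 each), with a log2 fold change of 1.90 ± 0.21 (SE) and an adjusted p of 0.0044 in edgeR. Ifitm2, whose start lies 5.7 kb from that of Ifitm5, rose from 390 to 867 FPKM (log2 1.19, adjusted p = 0.0109 in edgeR). Ifitm1, 16.9 kb away, rose by a log2 of 1.81 (adjusted p = 0.0306 in edgeR), a call lost when any library but KO 2 was left out (adjusted p = 0.0514 to 0.0887). Ifitm3, 60.5 kb away, stood at 498 and 466 FPKM and did not pass. Ifitm7, on chromosome 16, rose by a log2 of 1.65 at a level under 1 FPKM, a call lost when any control library or KO 1 was left out (adjusted p = 0.0543 to 0.0709 in edgeR), and Ifitm10 did not pass (adjusted p = 0.109 in edgeR). The count of 4 was 2 when any single control library or KO 1 was left out, and 0 without control 3 and control 4 together, where Ifitm6 had an adjusted p of 0.0579 and Ifitm2 of 0.144 in edgeR. Of the 50-base stretches of Ifitm2, 48.5% lie in other genes too, so its level is uncertain. The gene sharing most was Gm45717, as for Ifitm5, with 36.1% of the stretches. Neutrophil markers rose in the same libraries, and their part in these values was not tested.

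**Figure D4:**
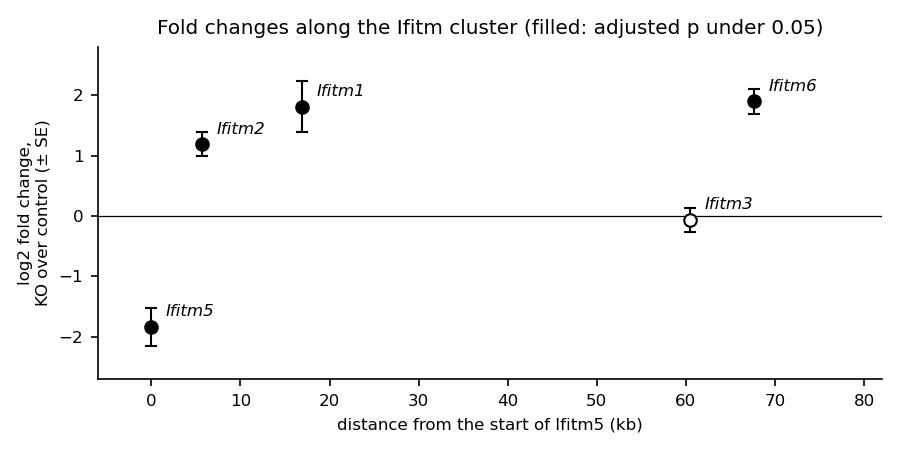
Log2 fold change of KO over control with its SE for Ifitm5 and the Ifitm genes near it on chromosome 7, against the distance in kb from the start of Ifitm5. Ifitm5 lies at -1.84, Ifitm2, Ifitm1 and Ifitm6 lie between 1.19 and 1.90, and Ifitm3 lies at -0.06.

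Genes of pyrophosphate and extracellular nucleotides gave 1 fall and 1 rise among 14 tested, where 5.03% of all genes tested fell and 5.31% rose. The median log2 of the 14 was -0.15. Enpp6, a choline phosphodiesterase related to Enpp1, fell from 4.58 ± 0.203 to 1.66 ± 0.353 FPKM (SD, n = 4 each; adjusted p = 0.00425 in edgeR). Entpd5, a nucleoside diphosphatase of the endoplasmic reticulum, rose from 7.54 ± 0.58 to 11.1 ± 0.918 FPKM (adjusted p = 0.0103 in edgeR). Without control 3 and control 4 together neither was called, at adjusted p of 0.0751 for Enpp6 and 0.124 for Entpd5 in edgeR. Other phosphate carriers had 0 calls among 5 tested. Their median log2 was -0.21, and Slc34a2, Slc34a3 and Slc17a3 were listed at 0 in every library.

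Among 20 genes of matrix vesicle lipid and choline metabolism, 3 fell and 1 rose, where 5.03% of all genes tested fell and 5.31% rose. The median log2 of the 20 was 0.13. Anxa1, a calcium- and phospholipid-binding annexin, rose from 240 to 502 FPKM (adjusted p = 0.00889 in edgeR). Asah2, neutral ceramidase, fell from 1.10 to 0.681 FPKM (adjusted p = 0.019 in edgeR), and the choline transporter gene Slc44a1 fell from 7.95 to 5.75 FPKM (adjusted p = 0.0327 in edgeR). Anxa5, an annexin abundant in matrix vesicles, fell by 0.35 on the log2 scale (adjusted p = 0.0384 in edgeR), a call lost when any library but KO 1 was left out (adjusted p = 0.0554 to 0.11). The count of 3 was 0 when control 3 or KO 3 was left out and 1 when control 1, control 2, control 4 or KO 2 was. Without control 3 and control 4 together it was 0, and Anxa1 was not called either (adjusted p = 0.107 in edgeR). None of the listed alkaline phosphatase paralogs had enough counts to be tested. Among 11 tested genes of the lipid anchor that holds Alpl in the membrane, 0 fell and Pigv rose (log2 0.43, adjusted p = 0.0409 in edgeR). Over all genes tested, 10.3% were called. The call of Pigv was lost when any library but KO 1 was left out, at an adjusted p of up to 0.117 in edgeR. That of Slc44a1 was lost when any library but control 2 or KO 4 was left out (up to 0.0978), and that of Asah2 when control 2, control 3, control 4 or KO 3 was (up to 0.0655).

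Among 13 tested genes of the mineral matrix and the phosphate hormone axis, 4 fell and 0 rose, where 5.03% of all genes tested fell and 5.31% rose. The median log2 of the 13 was -0.49. Bglap, which encodes osteocalcin, fell from 563 to 26.7 FPKM (adjusted p = 0.00351 in edgeR). Dmp1, an osteocyte matrix phosphoprotein, fell from 180 to 50.1 FPKM, and Ibsp, bone sialoprotein, from 332 to 158 FPKM (adjusted p = 0.015 and 0.0241 in edgeR). Phex, an osteocyte peptidase that restrains Fgf23, fell by 2.01 on the log2 scale (adjusted p = 0.0404 in edgeR), a call lost when any library but KO 4 was left out (adjusted p = 0.0561 to 0.0945). Fgf23 itself stood at 2.63 FPKM in control and 9.24 FPKM in KO, where it ran from 1.61 to 22.6 FPKM, and did not pass. The count of 4 was 2 when control 2, control 3, control 4 or KO 2 was left out, and it was 7 when KO 4 was. Ibsp lost its call in the first 4 of these, at adjusted p of 0.0507 to 0.0642 in edgeR. Without control 3 and control 4 together the count was 1, with Bglap called and Dmp1 at an adjusted p of 0.135 in edgeR. Osteoblast and osteocyte markers, which include several of these genes, fell in the same libraries.

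**Figure D5:**
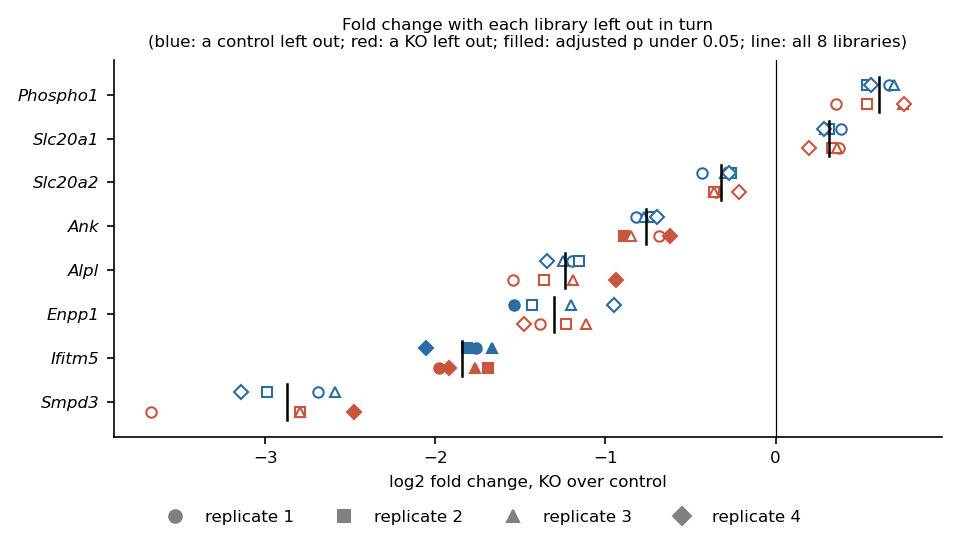
Log2 fold change of each of the 8 genes in edgeR when each of the 8 libraries is left out in turn, with filled points where the adjusted p is under 0.05 and a vertical line at the value with all 8. Ifitm5 stays past the threshold throughout, Ank does so without KO 2 or KO 4, Alpl and Smpd3 pass without KO 4, and Enpp1 passes without control 1.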

How the data were processed

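Total RNA of cortical bone was sequenced on the NovaSeq platform after Trizol extraction, per the labels' protocols. The authors deposited estimated counts and FPKM values in 1 table of 55401 genes, per the file headers. Genes with a count of 0 carry 0.0001 as their deposited FPKM. The build GRCm38 and the tools DESeq2, StringTie 1.3.4d and HISAT2 2.0.4 appear with no stated role, per the submitters' processing notes. How reads were counted, filtered and assigned to strands is not given in the sources. The estimated counts were whole, so rounding changed 0 of them. Values of 4 (7854) outnumber values of 3 (2724), so a fragment may be worth about 4 counts and totals may overstate the depth. Column names gave the library of each column, with 0 columns unused.

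Counts were tested with edgeR 4.0.16 in R 4.3.3 (TMM, filterByExpr with a minimum count of 10, quasi-likelihood, two-sided, Benjamini-Hochberg over 20152 genes, threshold 0.05). The test was checked on simulated data in which no library was set apart, so that check does not cover libraries such as KO 4. Fold intervals are 95% intervals of that fit. Ratios used log2(FPKM + 0.5) and a two-sided exact permutation test over 70 assignments. Shared stretches of 50 bases came from GENCODE M21. Motifs were searched in the first 250 bases of each RefSeq window, which is shorter than planned. Alternatives were other scalings, filters and pseudocounts, limma 3.58.1 on FPKM, DESeq2 1.42.0, robust estimation, a replicate block and libraries left out.

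The 8 genes and the lists were chosen with earlier results of these data known. The named genes are the 8, Col1a1, up to 3 called genes per pathway list with the smallest p, and the 3 genes that varied most like each of the 8. Anxa5, Phex, Fgf23, Ifitm1, Ifitm3, Ifitm10, Zfp652 and Abi3 are named outside this rule, after their values were seen.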

Additional observations from a re-analysis of the deposited data

Results flagged for a closer look

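Of 64 groups of 4 libraries examined, 7 had a library set apart from the other 3 by a gap past Dixon's 95% critical value, and chance alone sets apart about 1 group in 20. KO 4 was the library set apart in 5 of them. It had the lowest Slc20a2 level of the KO group, at 3.29 FPKM, and the highest Ifitm2 level, at 1181 FPKM. It also had the lowest log2 ratio of Alpl to Enpp1, at 2.12, the highest of Slc20a1 to Slc20a2, at 2.20, and the lowest of Smpd3 to Col1a1, at -7.77. Control 1 had the highest log2 ratio of Slc20a1 to Slc20a2 of its group, at 1.52, and control 4 the highest of Enpp1 to Col1a1, at -7.68.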

How the results depend on the processing

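Of 482 recomputed fold changes of single genes, 397 kept their direction and side of the threshold, 77 were no longer past it, 8 newly passed it and 0 changed direction. Of 851 recomputed counts, 707 were within 1.5 times the reported count, 124 were lower and 20 higher. Many of the 707 were 0 in the fit of all 8 libraries and stayed 0, as for skeletal muscle and adipocyte markers. The share of counts above 0 that held was therefore smaller. Scalings moved the median of all genes by under 0.1. The cause of the changes below was not tested. The count of the 8 genes called lower, 2, was 1 with no scaling, no filter or limma at a pseudocount of 0.1, 5 with DESeq2, 0 without control 3 and control 4, 1 without control 3 and KO 4, and 1 to 4 with 1 library left out. Genes called over the whole table, 2083, came to 3965 with DESeq2, 56 without control 3 and control 4, 1323 without control 3 and KO 4, and 769 to 2230 with 1 library left out. Of the calls, 51.4% were higher, against 43% with limma at a pseudocount of 1, 42.9% without control 3 and control 4, and 59.9% without control 3.

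Ank missed the threshold with no scaling (-0.77, adjusted p = 0.0617), no filter (-0.76, 0.0584), limma at pseudocounts of 0.5 (-0.80, 0.0518), 0.1 (-0.82, 0.0551) and 1 (-0.78, 0.051), without control 3 and control 4 (-0.72, 0.257) and without control 3 and KO 4 (-0.63, 0.084), all log2 fold changes with limma or edgeR. With DESeq2, Alpl (-1.24), Smpd3 (-2.87) and Enpp1 (-1.30) passed, and Smpd3 passed with limma at 0.5 (-2.69) and 1 (-2.32). Ifitm5 missed it without control 3 and control 4 (-1.97). With 1 library left out, log2 fold changes ran from -0.892 to -0.62 for Ank, -1.54 to -0.936 for Alpl, -3.67 to -2.48 for Smpd3, -1.54 to -0.949 for Enpp1 and -2.05 to -1.67 for Ifitm5. The log2 difference of Smpd3 to Col1a1 was -0.195 on log2(counts + 1).

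Control and KO libraries share only a replicate number: the correlation of same-numbered libraries' deviations ran from -0.172 to 0.106. With the replicate block, 56 genes and 0 of the 8 were called, with Ank at -0.79 (adjusted p = 0.0955 in edgeR) and Ifitm5 at -1.81 (0.0677). With counts divided by 4, to allow for a fragment worth about 4 counts, 2500 genes were called.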

Other observations

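After each group's mean was subtracted, the levels of 6901 genes were correlated with each of the 8 genes over the 8 libraries, as a description with no test, since these libraries share depth and the far position of KO 4. Smpd3 varied most like Crtap (r = 0.989), a subunit of the collagen prolyl 3-hydroxylation complex, Mpnd (0.986) and Creb3l1 (0.982), a membrane-bound transcription factor of the secretory pathway. Alpl varied most like Isoc2a (0.995), Prss57 (0.994), a serine protease of neutrophil granules, and Srpx2 (0.989). Ifitm5 varied most like Naaa (0.961), Ogt (0.959) and Csf2ra (0.952), a receptor chain of myeloid cells. The nearest gene was Fads2 for Phospho1 (0.986), Dnajc3 for Enpp1 (0.981), Vcp-rs for Ank (0.960), Rps18 for Slc20a1 (0.989) and Cst3 for Slc20a2 (0.986).

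Among the 8 genes, Alpl and Smpd3 varied together (r = 0.939, and 0.659 without KO 4) and Slc20a1 and Slc20a2 in opposite directions (r = -0.888, and -0.781 without KO 4). The correlation of Smpd3 with Ank was 0.379 over 8 libraries and -0.917 without KO 4, and that of Smpd3 with Ifitm5 was 0.181 and 0.941, so both depend on KO 4.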
